A study of Mus musculus with 2 samples.

Results

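Cell cycle phase genes were described here in single T cells of the mouse spleen. The set holds 48 of the 19837 genes in the deposited table, a list of genes known to be transcribed in phases of the cell cycle, sorted here by textbook phase. There are 18 S phase members, which are transcribed around the start of DNA replication, and 26 G2/M members, which are transcribed before and during mitosis. The other 4 members (Stmn1, Tubb5, Hmgb2 and Tuba1b) are raised in dividing cells but belong to no single phase. All 48 had molecules in each of the 3 treatments.

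Female mice (C57/BL6N in the labels, C57BL/6 in the design text) were given saline or remimazolam, a short-acting benzodiazepine that acts on GABA(A) receptors. The saline group is labelled 0 h, and the treated groups received remimazolam at 6 mg/kg and were taken 4 h or 8 h later, so time and drug cannot be told apart for want of later saline groups. Each group was a pool of 3 mice whose cells carried 1 sample tag, an oligonucleotide-bearing antibody (tag 8 for saline, tag 10 for 4 h, tag 9 for 8 h, per the deposited description). The sort is described both as CD45+CD3+CD5+ cells and as CD45+ cells. Single cells of the 3 pools were captured together on the BD Rhapsody platform, and their RNA was counted as molecules.

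With 1 pool for each treatment, no value here has a replicate check and no test between treatments was possible. Mice of a pool cannot be told apart. Intervals are exact 95% intervals for counting error only (Poisson for a summed level, Clopper-Pearson for a share, conditional binomial for a ratio). They are too narrow for genes whose molecules lie in few cells, because the molecules of 1 cell are not independent draws. Both comparisons with saline use the same saline pool. A gene was counted as higher or lower when its ratio passed 1.3-fold (at or above 1.3, or at or below 0.769). It also needed at least 100 molecules over both pools. A gene scarce in 1 pool can reach this minimum through a high count in the other, so some genes were counted only because they were high there.

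T cells were taken as tagged cells with a CD3 chain molecule and fewer than 3 molecules of B cell, plasma cell and myeloid genes. This gave 4994 saline, 5107 4 h and 5103 8 h cells with 13702903, 14006129 and 13961170 molecules. Median depth was 2548 molecules per cell in the saline pool, 2529 at 4 h and 2531 at 8 h. The 5 T cell markers together gave 4000, 3983 and 4066 CPM (counts scaled to 1000000 molecules of the same cells) in saline, 4 h and 8 h T cells. The 4 B cell markers gave 15.0, 14.9 and 12.7 CPM in the same order. Cd4+ cells (1767 saline, 1718 4 h, 1863 8 h) had a Cd4 molecule, no Cd8a or Cd8b1 and no Foxp3. Cd8+ cells (1946, 2041 and 1917) had Cd8a or Cd8b1 without Cd4 or Foxp3, and Foxp3+ cells (202, 227 and 233) had Foxp3 without Cd8a or Cd8b1. These gates are ranges of detection and not cell types, since a cell with few molecules can miss a gene that it expresses.

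A resting T cell sits outside the cycle. When it enters the cycle, E2F transcription factors switch on the genes of DNA replication at the border of G1 and S phase: the MCM helicase that opens the origins, the clamp PCNA and the enzymes that make deoxynucleotides. Mitotic genes follow later and are switched on by the MuvB complex with B-MYB and FOXM1, which reads a short element called CHR (cell cycle genes homology region), often beside CCAAT boxes bound by NF-Y. In the spleen of an unchallenged mouse, dividing T cells are a minority and include memory-like and regulatory T cells.

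Promoter sequence differed between the phase lists. RefSeq promoters on GRCm38.p6, from 250 bases before to 50 bases after each start, were found for 40 of 48 members (15 S, 22 G2/M and 3 of no single phase, the S genes with 17 promoters among them). Aurkb, Ccna2, Ccne2, Gins2, Kif20a, Mcm4, Stmn1 and Tpx2 were not matched. The CHR letters TTTGAA, read on both strands, stood in 77.3% of 22 G2/M promoters, 11.8% of 17 S promoters and 17.9% of all 32851 promoters of the table. CCAAT, also on both strands, stood in 90.9% of G2/M, 76.5% of S and 37.4% of all promoters. An E2F word (GGCGGGAA or TTTGGCGC, both strands, words that can share letters with each other) stood in 0% of G2/M, 35.3% of S and 2.68% of all promoters. Both CHR and CCAAT were present in 77.3% of G2/M, 11.8% of S and 6.95% of all promoters. A match is a description of letters and not a measured binding site, and a promoter without these letters in this window may hold other forms.

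The sequences below show the motifs in members chosen because they hold them: 3 G2/M members that pass the fold at 4 h (Ccnb2, Ube2c and Cenpf) and 2 S members (Pclaf and Mcm6). The other 3 members past that fold had no CHR letters in the window (Bub1 and Cenpe held CCAAT alone, and Birc5 held neither). Pcna and Mcm7, S members with more molecules than Pclaf, held no E2F word. Each runs 5′ to 3′ on the gene's strand from 140 bases before to 30 bases after the RefSeq start, and capitals mark matches to CHR, CCAAT or E2F on either strand (TTCAAA and ATTGG are the reverse forms).
Ccnb2 (GRCm38.p6 chr9:70421525-70421694, minus strand): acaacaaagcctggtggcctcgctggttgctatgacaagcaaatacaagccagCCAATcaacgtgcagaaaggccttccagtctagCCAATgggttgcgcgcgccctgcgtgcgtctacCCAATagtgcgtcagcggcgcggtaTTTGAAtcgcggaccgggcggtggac
Ube2c (GRCm38.p6 chr2:164769789-164769958, plus strand): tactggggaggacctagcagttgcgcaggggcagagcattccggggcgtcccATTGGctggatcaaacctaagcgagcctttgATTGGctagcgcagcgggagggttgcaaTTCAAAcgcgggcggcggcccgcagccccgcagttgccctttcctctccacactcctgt
Cenpf (GRCm38.p6 chr1:189688057-189688226, minus strand): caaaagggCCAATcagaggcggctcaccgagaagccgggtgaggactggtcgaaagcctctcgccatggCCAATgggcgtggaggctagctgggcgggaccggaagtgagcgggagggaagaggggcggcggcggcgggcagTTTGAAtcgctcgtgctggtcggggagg
Pclaf (GRCm38.p6 chr9:65890183-65890352, plus strand): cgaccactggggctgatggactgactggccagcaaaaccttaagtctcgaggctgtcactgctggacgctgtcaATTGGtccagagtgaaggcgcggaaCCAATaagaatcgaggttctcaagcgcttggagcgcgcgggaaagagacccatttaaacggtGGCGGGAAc
Mcm6 (GRCm38.p6 chr1:128359676-128359845, minus strand): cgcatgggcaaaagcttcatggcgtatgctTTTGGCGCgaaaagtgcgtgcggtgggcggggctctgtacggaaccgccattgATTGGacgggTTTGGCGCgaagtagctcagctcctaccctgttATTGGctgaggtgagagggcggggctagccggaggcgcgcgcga
In Ccnb2 the CCAAT boxes began 87, 54 and 21 bases before the start, and the CHR letters began 4 bases after it. In Ube2c the reverse CHR letters began 29 bases before the start, below CCAAT boxes at 88 and 57 bases. Mcm6 held E2F words 110 and 47 bases before its start and no CHR letters in the stretch shown.

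Cycling cells were found without the members, so that member values in them could be read separately. Of 50 other S and G2/M genes, the 35 detected in at most 5% of T cells were used, and a cell was called cycling when at least 3 of them had a molecule. By this rule 113 of 4994 saline T cells were cycling (2.26%, 95% interval 1.87 to 2.71), 135 of 5107 at 4 h (2.64%, 2.22 to 3.12) and 122 of 5103 at 8 h (2.39%, 1.99 to 2.85). The share at 4 h was 1.17 times that in saline (0.903 to 1.51), and the share at 8 h was 1.06 times (0.811 to 1.38). Neither difference was detectable beyond counting error. Many cells lay at the edge of the rule: 182 of the 370 cycling cells had exactly 3 of the genes and 37 had exactly 4, against 987 cells with 2.

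With at least 5 genes required, 40 saline cells (0.801%, 0.573 to 1.09), 58 cells at 4 h (1.14%, 0.863 to 1.47) and 53 cells at 8 h (1.04%, 0.779 to 1.36) remained. The ratio was 1.42 (0.932 to 2.18) for 4 h and 1.3 (0.844 to 2.01) for 8 h, so the intervals still included equality. When every cell was thinned to 1500 molecules, which left out 230 saline, 238 4 h and 256 8 h cells, cells with at least 3 genes made up 0.819% in saline, 1.13% at 4 h and 1.09% at 8 h. Cells with at least 5 genes were deep, with a median of 8458 molecules against 2529 in the other T cells, and 54 of these 151 cells held over 10000 molecules against 9 of 15053 others. Cells with both Cd4 and Cd8 molecules, which can be 2 cells read as 1, made up 29 of the 151, against 817 of all 15204 T cells. The 4 B cell markers summed to 27.5 CPM in these cells in saline (1 marker at 0), 14.7 CPM at 4 h (2 at 0) and 8.04 CPM at 8 h (2 at 0), and the 4 neutrophil markers were all at 0. The 4 plasma cell markers summed to 69.9, 53.2 and 44.2 CPM in saline, 4 h and 8 h, with 3, 3 and 1 of them at 0, against 31.7, 33.1 and 31.1 CPM in all T cells. The 4 myeloid markers gave 99.8, 106 and 98.5 CPM, with 2 at 0 in each pool, against 82.0, 88.5 and 82.2 CPM in all T cells. The part of doublets and of other cell types in these shares was not tested.

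The members divided into genes held by those few cells and genes spread over all T cells. The 151 cells with at least 5 other phase genes held over 75% of the T cell molecules of 22 members and under 25% of those of 11 members. The extremes were Ccna2 (97.6%), which encodes the cyclin partner of CDK2 and CDK1, and Tubb5 (9.76%), a beta-tubulin. G2/M members lay mostly at the high end, with a median of 82.0%, and S members had a median of 47.0%. Pcna (16.9%), Mcm2 (16.4%) and Mcm4 (16.4%) were S members found largely outside cycling cells, as were Cenpa (24.3%), Kif23 (20.9%) and Racgap1 (17.2%) among the G2/M members. The bar chart of molecule shares shows this split.

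**Figure D1:**
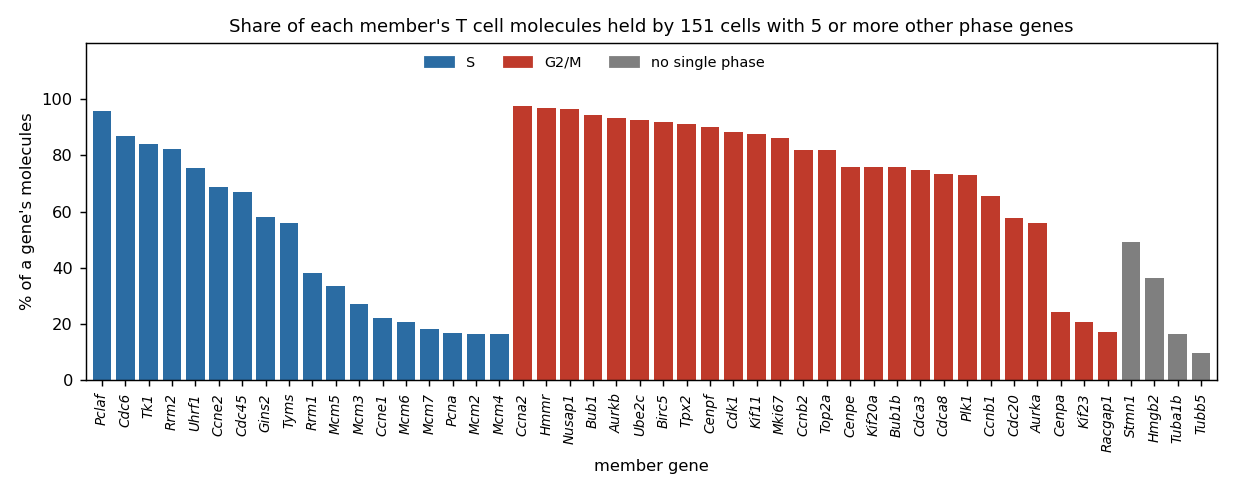
Percent of each member's T cell molecules, over the 3 pools together, that lay in the 151 T cells with at least 5 of 35 other phase genes. Bars are coloured by phase and sorted within it, and run from 97.6% for Ccna2 to 9.76% for Tubb5.

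The share of cells with a molecule of a member followed the same split. No cell type here is sure to lack the members, so the T cells below the stricter limit served as the background, with a median depth of 2529 molecules against 8458. Pclaf was found in 74.8% of the 151 cells and in 0.372% of the other T cells, and Top2a in 84.8% and 2.56%. Pcna was found in 84.1% and 25.3%, and Tubb5 in 99.3% and 68.2%. Most Pcna-positive and Tubb5-positive cells were thus below the limit. In 389 B cells, taken by their markers and with a median depth of 2180 molecules against 2537 in T cells, Pclaf was found in 2.57% and Pcna in 21.1%.

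At 4 h, 41 of the 48 members had at least 100 molecules over both pools, and 6 of them were higher than in saline by 1.3-fold, all from G2/M, while 0 were lower. Over all 9492 genes with that many molecules, 2.86% were higher and 1.27% lower. The median log2 ratio was 0.10 over the 41 members and 0.01 over all genes. By phase it was 0.21 over 23 G2/M members, 0.09 over 14 S members and 0.05 over the 4 of no single phase. At 8 h, 40 members had enough molecules, and 0 were higher and 0 lower, against 2.19% higher and 1.32% lower of all 9470 genes. The median log2 ratio at 8 h was 0.03 over the members, -0.02 over 22 G2/M members and 0.06 over 14 S members. The panel of member ratios shows these values with their intervals.

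**Figure D2:**
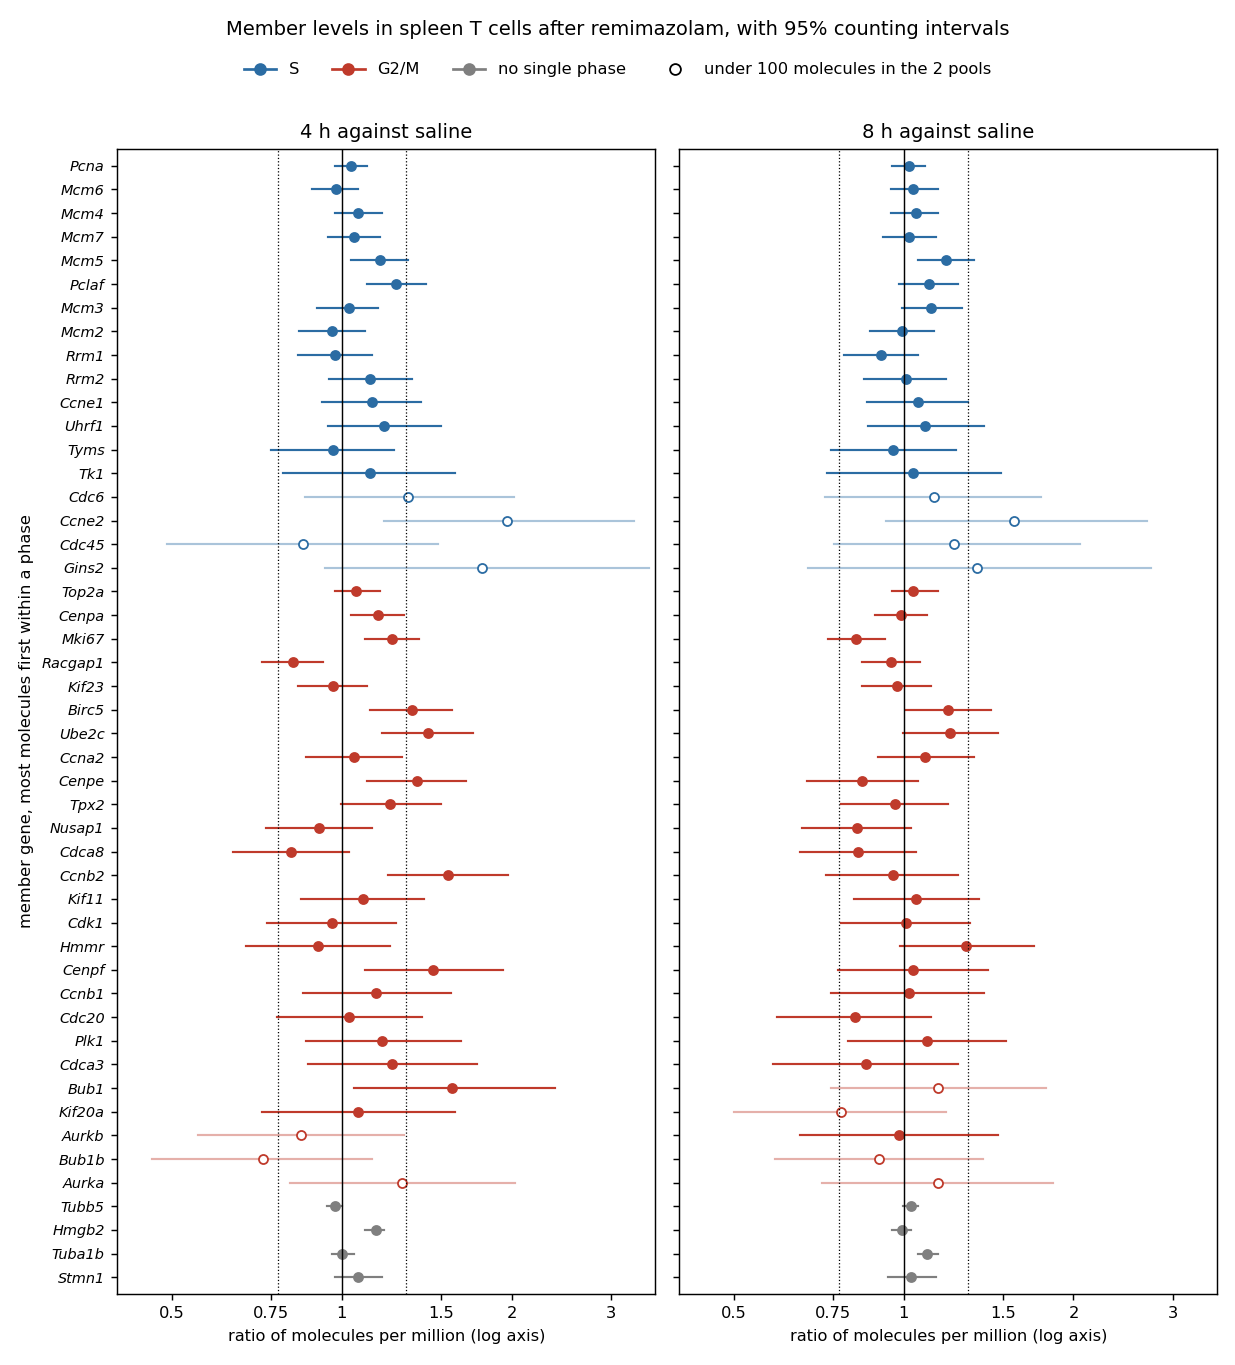
Ratio of CPM in all T cells at 4 h against saline (left) and 8 h against saline (right) for each of the 48 members, on a log axis. Points are coloured by phase, lines are 95% counting intervals, dotted lines mark 1.3-fold, and open points have under 100 molecules over both pools. Of the filled points, 6 lie right of the upper dotted line at 4 h and 0 at 8 h.

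Summed over the 18 S members, the level was 539 CPM (527 to 552) in saline T cells, 574 CPM (561 to 587) at 4 h and 565 CPM (553 to 578) at 8 h. The ratio to saline was 1.06 (1.03 to 1.10) for 4 h and 1.05 (1.02 to 1.08) for 8 h. Summed over the 26 G2/M members, it was 404 CPM (394 to 415), 446 CPM (435 to 458) and 398 CPM (387 to 408), with ratios to saline of 1.10 (1.07 to 1.15) at 4 h and 0.984 (0.948 to 1.02) at 8 h. The S sum was thus slightly above saline at both times, and the G2/M sum was above it at 4 h alone. Without the cells that held both Cd4 and Cd8, the G2/M sum was also above saline at 8 h, as given below. The 4 h ratio of 1.10 was not shared by the large gates: the G2/M sum was then 0.892 times saline in Cd4+ and 0.991 times in Cd8+ cells. It was 1.38 times in Foxp3+ cells and 1.34 times (1.24 to 1.46) in cells with both Cd4 and Cd8. In T cells of none of these kinds it was 2.56 times (2.16 to 3.04), and 5 cells held 64.4% of their 4 h molecules. Cells outside the T cell gate held 4.16% of S molecules in saline, 6.39% at 4 h and 7.43% at 8 h, and 8.36%, 5.59% and 6.99% of G2/M molecules.

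Among S members, the genes of the replication machinery were close to level in all pools. Pcna, the sliding clamp of DNA polymerase, had 1791 molecules in 1295 saline cells, 1901 in 1321 cells at 4 h and 1860 in 1321 cells at 8 h, for ratios to saline of 1.04 (0.973 to 1.11) and 1.02 (0.955 to 1.09). The helicase subunits Mcm6 (863, 861 and 917 molecules in saline, 4 h and 8 h), Mcm4 (833, 911 and 888) and Mcm7 (663, 713 and 690) had ratios between 0.976 and 1.07. Mcm5, a further helicase subunit, had 551 molecules in saline, 660 at 4 h and 666 at 8 h, and its ratios of 1.17 (1.04 to 1.31) and 1.19 (1.06 to 1.33) had intervals above 1. Pclaf, a PCNA-binding protein known mainly from dividing cells, had 497 molecules in 49 saline cells, 637 in 68 cells at 4 h and 561 in 52 cells at 8 h. Its ratio was 1.25 (1.11 to 1.41) for 4 h and 1.11 (0.980 to 1.25) for 8 h. All 14 S members with enough molecules stayed within 1.3-fold at both times. On the log2 scale they lay between -0.06 and 0.33 at 4 h and between -0.13 and 0.25 at 8 h. Cdc6 (origin licensing), Ccne2 (a cyclin of the G1/S border), Cdc45 and Gins2 (partners of the replicative helicase) had under 100 molecules in both comparisons and were not counted.

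Of the G2/M members with most molecules, Top2a and Kif23 were level and Mki67 was not. Top2a, the topoisomerase that untangles replicated DNA, had 888 molecules in 169 saline cells, 966 in 184 cells at 4 h and 945 in 160 cells at 8 h (ratios 1.06, 0.971 to 1.17, and 1.04, 0.952 to 1.15). Kif23, a kinesin of the dividing cell's midbody, had 392, 386 and 388 molecules in saline, 4 h and 8 h. Mki67, which encodes the proliferation antigen Ki-67, had 635 molecules in saline, 797 at 4 h and 533 at 8 h, with ratios of 1.23 (1.10 to 1.37) and 0.824 (0.733 to 0.926). It was above saline at 4 h and below it at 8 h, both within 1.3-fold.

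Cenpa, the centromeric histone H3 variant, had 663 molecules in saline, 786 at 4 h and 669 at 8 h, with ratios of 1.16 (1.04 to 1.29) and 0.990 (0.888 to 1.10). Racgap1, a regulator of cytokinesis that was mostly found outside cycling cells, had 553, 463 and 535 molecules. Its ratio was 0.819 (0.722 to 0.928) at 4 h, and 0.95 (0.842 to 1.07) for 8 h. Of the members with at least 100 molecules, the lowest at 4 h was Cdca8, a subunit of the chromosomal passenger complex, with 160 molecules in saline, 133 at 4 h and 135 at 8 h (ratio 0.813, 0.641 to 1.03, at 4 h). The highest of them at 8 h was Hmmr, a spindle-associated protein, with 98, 91 and 129 molecules and a ratio of 1.29, just inside the fold.

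The 6 members past 1.3-fold at 4 h act in mitosis. Ccnb2 (chr9:70407692-70421547), a B-type cyclin that activates CDK1, had 114 molecules in 39 saline cells, 180 in 55 cells at 4 h and 111 in 36 cells at 8 h. Its ratio was 1.54 (1.21 to 1.97) for 4 h and 0.956 (0.729 to 1.25) for 8 h. Ube2c (chr2:164769898-164778822), the ubiquitin-conjugating enzyme of the anaphase-promoting complex, had 198 molecules in 33 saline cells, 288 in 58 cells at 4 h and 244 in 37 cells at 8 h, with ratios of 1.42 (1.18 to 1.71) and 1.21 (0.999 to 1.47). Both had more positive cells at 4 h than in the other pools, and Ube2c stayed above saline at 8 h by a ratio whose interval reaches 1.

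The centromere and checkpoint genes among the 6 were also highest at 4 h. Cenpf (chr1:189640606-189688086), a large kinetochore protein, had 87 molecules in saline, 129 at 4 h and 92 at 8 h, with ratios of 1.45 (1.10 to 1.93) and 1.04 (0.766 to 1.41). Cenpe (chr3:135212537-135273611), the kinetochore motor, had 172, 239 and 148 molecules, with ratios of 1.36 (1.11 to 1.66) and 0.845 (0.673 to 1.06). Bub1 (chr2:127801122-127831865), a kinase of the spindle checkpoint, had 41, 66 and 48 molecules and a ratio of 1.57 (1.05 to 2.39) at 4 h. It reached the minimum through its 4 h count, with 107 molecules over saline and 4 h. Over saline and 8 h it had 89 and was not counted. The 8 h ratios of Cenpf and Cenpe lay on both sides of 1. Birc5 (chr11:117849251-117855743), which encodes survivin of the chromosomal passenger complex, had 244 molecules in 44 saline cells, 331 in 59 cells at 4 h and 299 in 48 cells at 8 h, with ratios of 1.33 (1.12 to 1.57) and 1.2 (1.01 to 1.43). Coordinates are on GRCm38 from GENCODE M21, looked up by symbol.

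Without the cells that held both Cd4 and Cd8 molecules, 3 members in place of 6 were higher at 4 h and 5 in place of 0 at 8 h. The G2/M sum at 8 h was then 1.07 times saline (1.03 to 1.12), and the S sum at 4 h was 1.02 times (0.990 to 1.06). A G2/M sum above saline at 4 h and not at 8 h was thus seen only while these cells were counted.

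The 4 members of no single phase were close to level in all T cells. Tubb5 had 568, 553 and 585 CPM and Tuba1b, an alpha-tubulin, 305, 306 and 336 CPM in saline, 4 h and 8 h. Hmgb2, a chromatin protein, had 336, 385 and 333 CPM, a ratio of 1.15 at 4 h with an interval (1.10 to 1.19) above 1. Stmn1, a microtubule-destabilising protein, had 57.1, 61.3 and 59.1 CPM. Tubb5, Tuba1b and Hmgb2 have near-identical relatives or pseudogenes, and reads could have been assigned among them, so their levels are less certain.

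For all 26 G2/M members at 4 h, 21 were found in a larger share of T cells than in saline, and 16 had fewer molecules per positive cell. The median ratio was 1.23 for the share of positive cells and 0.976 for molecules per positive cell. For the 18 S members the medians were 1.05 and 1.02. At 8 h the medians over G2/M members were 1.07 and 0.965, and over S members 1.04 and 1.01. Members share cells, so these counts are not independent. They were also taken at full depth. Thinned as above, Ccna2, Cdk1, Cenpf, Aurkb, Kif11 and Kif20a, all among the 21, were found in a smaller share at 4 h than in saline. The thinned saline and 4 h shares were 0.357% and 0.267% for Kif20a, and 0.147% and 0.144% for Aurkb. Kif23, not among the 21, went the other way when thinned, with 3.46% in saline and 3.53% at 4 h. The remaining G2/M members kept their direction.

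Mki67 was found in 78 saline cells (1.56%), 114 cells at 4 h (2.23%) and 88 cells at 8 h (1.72%), with 8.14, 6.99 and 6.06 molecules per positive cell. Its share of positive cells was thus 1.43 times saline at 4 h (1.06 to 1.93) and 1.10 times at 8 h (0.805 to 1.52), while its molecules per positive cell were 0.859 and 0.744 times saline. After thinning to 1500 molecules its share was 1.18% in saline, 1.68% at 4 h and 1.18% at 8 h. Ube2c had 1.72 times (1.10 to 2.72) the saline share at 4 h with 0.828 times the molecules per positive cell, and Cenpe had 1.66 times (1.15 to 2.44) with 0.816 times. Ube2c was found in 0.661%, 1.14% and 0.725% of saline, 4 h and 8 h cells, and thinned in 0.294%, 0.472% and 0.516% of them. Cenpe was found in 0.941%, 1.57% and 1.04%, and thinned in 0.504%, 0.760% and 0.598%. The other 4 members past the fold were at or above saline in both parts. Ccnb2 had 1.38 times (0.898 to 2.13) the positive cells and 1.12 times the molecules in each, and Bub1 1.47 (0.830 to 2.64) and 1.07. Cenpf had 1.43 (0.824 to 2.51) and 1.02, and Birc5 1.31 (0.872 to 1.98) and 1.01. All 4 intervals for positive cells included 1. Thinned, the saline and 4 h shares were 0.420% and 0.575% for Ccnb2 and 0.210% and 0.226% for Bub1. They were 0.336% and 0.329% for Cenpf, and 0.567% and 0.739% for Birc5. The scatter of positive cells against molecules per cell shows the 2 quantities.

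**Figure D3:**
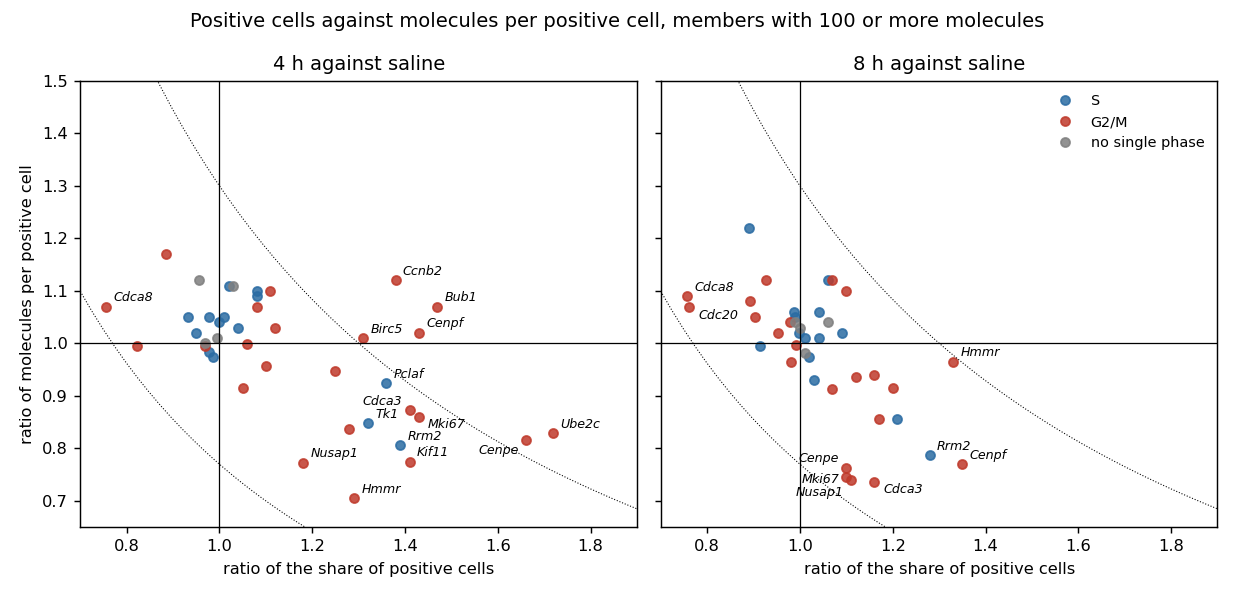
Ratio to saline of the share of positive T cells (horizontal axis) and of molecules per positive cell (vertical axis) at 4 h (left) and 8 h (right), for members with at least 100 molecules over both pools, coloured by phase. Dotted curves mark a product of 1.3-fold up or down, and genes far from the centre are named. At 4 h Ube2c and Cenpe lie far right and below 1 on the vertical axis, at 1.72 and 0.828 and at 1.66 and 0.816.

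Within the cells with at least 5 other phase genes, the S and G2/M sums were not above saline after remimazolam. These cells held 75.6 G2/M member molecules each at 4 h and 70.7 at 8 h, against 87.4 in saline, or 0.921 (0.881 to 0.964) and 0.864 (0.825 to 0.905) times saline in CPM. S member molecules numbered 47.8 per cell at 4 h and 48.5 at 8 h, against 53.1 in saline, with ratios of 0.959 (0.906 to 1.01) and 0.976 (0.921 to 1.03). In the remaining T cells the G2/M sum was also below saline, at 0.905 times (0.849 to 0.964) for 4 h and 0.873 times (0.819 to 0.931) for 8 h, while the S sum was level, at 0.989 and 0.999. The G2/M sum at 4 h was thus below saline within both classes of cell, and above it over all T cells, where the richer class made up 1.14% at 4 h against 0.801% in saline. This split depends on the rule of at least 5 other phase genes, which took in member-rich cells unequally. Of T cells with at least 6 S or 6 G2/M members, it held 39 of 57 in saline, 54 of 61 at 4 h and 50 of 57 at 8 h. How far this bears on the sums within each class was not tested. Mki67 averaged 11.8 molecules per cell of the richer class at 4 h and 8.75 at 8 h, against 13.5 in saline. Its 8 h ratio in CPM there was 0.692 (0.610 to 0.785).

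Cells were also placed by the members themselves, with at least 6 S members or at least 6 G2/M members detected. Saline T cells held 18 cells with S members alone, 27 with both and 12 with G2/M members alone. At 4 h these numbers were 18, 34 and 9, and at 8 h 20, 32 and 5. Cells with S members alone stayed level, and those with G2/M members alone were fewest at 8 h, from small numbers. Exactly 5 or 6 S members, on either side of the limit, were found in 59 T cells, and exactly 5 or 6 G2/M members in 5. Of the 175 cells placed in any of the 3 classes, 143 were also among the 151 found by other phase genes. By pool, 57 of 4994 saline T cells, 61 of 5107 at 4 h and 57 of 5103 at 8 h were placed. Of these, 39, 54 and 50 were among the 151.

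**Figure D4:**
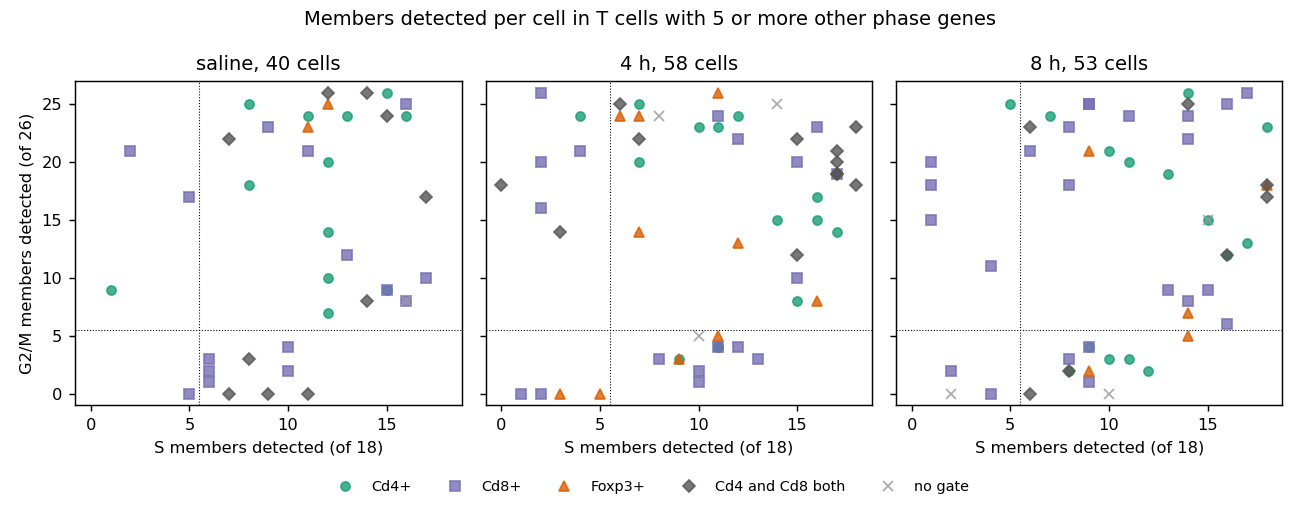
Number of S members (of 18, horizontal axis) and G2/M members (of 26, vertical axis) detected in each T cell with at least 5 other phase genes, for saline (40 cells), 4 h (58 cells) and 8 h (53 cells), with symbols for the gate of the cell. Dotted lines mark the limit of 6 members. Cells with many members of both phases fill the upper right of each panel, and some points overlap.

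By gate, the shares of cycling cells differed from saline by less than counting error. In Cd4+ cells the share with at least 3 genes was 1.75% in saline, 2.15% at 4 h and 2.25% at 8 h, with ratios of 1.23 (0.741 to 2.05) and 1.29 (0.789 to 2.11). Cd8+ cells had 2.83%, 2.84% and 2.76%, with ratios of 1.01 (0.683 to 1.48) and 0.978 (0.658 to 1.45). Foxp3+ cells had 5 of 202 cells (2.48%), 15 of 227 (6.61%) and 7 of 233 (3.0%), with ratios of 2.67 (0.922 to 9.39) and 1.21 (0.332 to 4.85). With at least 5 genes there were 2, 10 and 5 Foxp3+ cells, and thinned to 1500 molecules the share with at least 3 genes was 1.08%, 3.32% and 1.79%. The Foxp3+ share was highest at 4 h by each of these counts, and in each the interval of the 4 h ratio to saline included 1.

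**Figure D5:**
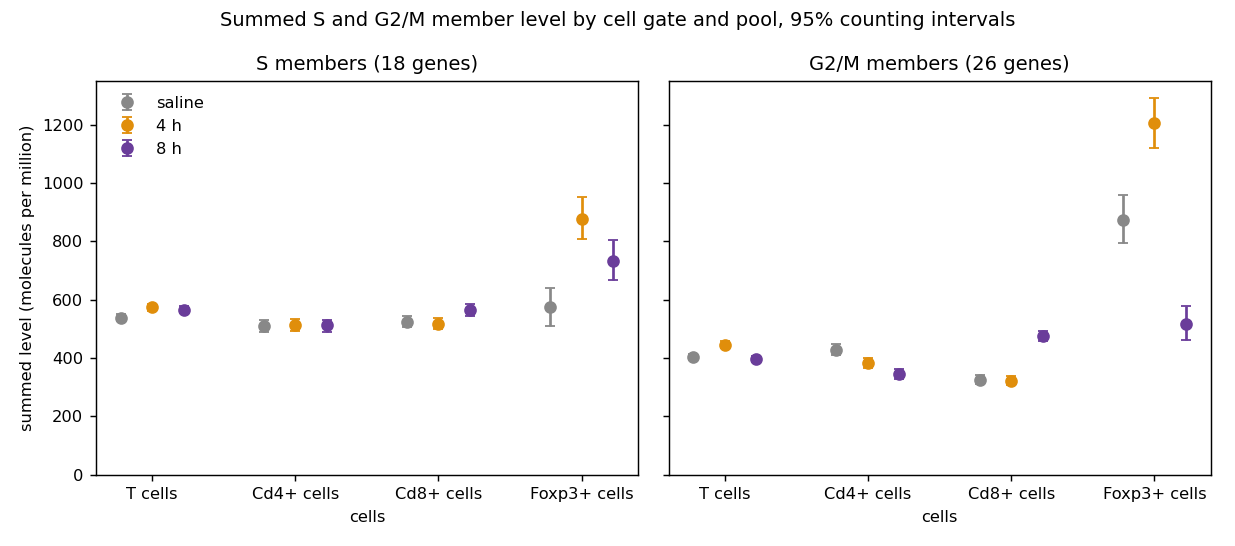
Summed CPM of the 18 S members (left) and 26 G2/M members (right) in all T cells and in Cd4+, Cd8+ and Foxp3+ cells, for saline, 4 h and 8 h, with 95% counting intervals. The G2/M sum runs from 323 CPM in Cd8+ cells at 4 h to 1206 CPM in Foxp3+ cells at 4 h.

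In Cd8+ cells the S sum was 525, 517 and 565 CPM in saline, 4 h and 8 h (ratios 0.985 and 1.08). The G2/M sum was 326 CPM (311 to 341) in saline, 323 CPM (309 to 338) at 4 h and 475 CPM (457 to 493) at 8 h. The ratio was 0.991 (0.929 to 1.06) for 4 h and 1.46 (1.37 to 1.55) for 8 h. At 8 h, 8 of the 12 G2/M members with enough molecules were higher by 1.3-fold and 0 were lower, against 2.53% higher and 2.36% lower of all genes in that gate. At 4 h, 0 of 7 such G2/M members and 0 of 12 S members passed the fold, against 2.89% higher and 1.65% lower of all genes. The 8 were Top2a, Birc5, Ube2c, Ccna2, Nusap1, Tpx2, Ccnb2 and Cenpe. Of these, Ube2c, Ccna2, Nusap1, Tpx2 and Ccnb2 had enough molecules at 8 h and not at 4 h. They came into the comparison through their 8 h counts, so the count of 8 of 12 is set in part by the minimum itself. Ube2c had 27 molecules in 9 saline cells, 60 in 15 cells at 4 h and 116 in 19 cells at 8 h, an 8 h ratio of 4.32 (2.82 to 6.84). Ccna2 had 27 molecules in 9 cells, 39 in 8 cells and 108 in 17 cells, an 8 h ratio of 4.03 (2.62 to 6.39). Top2a had 233, 228 and 393 molecules, an 8 h ratio of 1.70 (1.44 to 2.0), but in fewer cells at 8 h, with 50 positive cells against 66 in saline. Birc5 (61, 77 and 161 molecules in saline, 4 h and 8 h), Nusap1 and Tpx2, which act on spindle microtubules (34, 38 and 79, and 35, 59 and 83), Ccnb2 (42, 47 and 65) and Cenpe (54, 74 and 77) were each highest at 8 h. Mki67, with 184, 178 and 204 molecules, stayed within the fold at 1.12.

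The Cd8+ difference was not seen without the deepest cells. Cd8+ cells above 10000 molecules numbered 10 at 8 h, 6 at 4 h and 4 in saline, and without them the G2/M ratio at 8 h was 1.04 (0.966 to 1.11), with 1 member (Birc5) higher and 1 (Mki67) lower. Of the 63 T cells above 10000 molecules, 54 had at least 5 other phase genes, so leaving them out also leaves out cells that carry the members. Without the single cell richest in member molecules of each pool the ratio was 1.55. Other Cd8+ members higher at 8 h were Pclaf (1.64), Rrm2 (1.54), Stmn1 (1.35) and Hmgb2 (1.3), and Hmgb2, Tubb5 and Tuba1b held the most molecules of the members in this gate. Tubb5 in Cd8+ cells had 690, 652 and 705 CPM in saline, 4 h and 8 h, and Tuba1b had 314, 300 and 351 CPM.

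In Cd4+ cells the G2/M sum went the other way, with 429 CPM (411 to 449) in saline, 383 CPM (365 to 402) at 4 h and 345 CPM (329 to 362) at 8 h. The ratios were 0.892 (0.836 to 0.953) and 0.804 (0.753 to 0.859). At 8 h, 6 of 13 G2/M members with enough molecules were lower (Mki67, Ccna2, Nusap1, Tpx2, Cenpe and Cdca8) and 0 were higher, against 2.74% lower and 2.34% higher of all genes. Mki67 had 273 molecules in 32 saline cells, 217 in 43 cells at 4 h and 201 in 29 cells at 8 h, an 8 h ratio of 0.709 (0.588 to 0.854). Ccna2 had 73, 64 and 52 molecules, Nusap1 72, 56 and 48, Tpx2 75, 66 and 48, Cenpe 71, 52 and 46, and Cdca8 65, 45 and 41, each lowest at 8 h. Without Cd4+ cells above 10000 molecules (6 at 4 h, 3 at 8 h and 5 in saline) the ratio was 1.04 at 4 h and 1.02 at 8 h, and at 8 h 2 G2/M members (Birc5 and Ube2c) and 2 S members (Pclaf and Mcm3) were higher and 0 lower. In that setting 1 member (Birc5) was higher and 1 (Racgap1) lower at 4 h. The S sum was level, at 509, 513 and 512 CPM, with Rrm1 and Rrm2, the subunits of ribonucleotide reductase, lower at 8 h (0.694 and 0.672). At 4 h, 2 G2/M members were lower (Cdca8 at 0.728 and Racgap1 at 0.722) and 0 were higher, against 2.52% lower and 3.12% higher of all genes. Tubb5 (464, 452 and 488 CPM in saline, 4 h and 8 h), Hmgb2 (392, 392 and 321 CPM) and Tuba1b (294, 293 and 318 CPM) held the most molecules in Cd4+ cells.

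In Foxp3+ cells both sums were above saline at 4 h, and they parted at 8 h. The S sum was 574 CPM (511 to 642) in saline, 877 CPM (807 to 953) at 4 h and 734 CPM (669 to 804) at 8 h, with ratios of 1.53 (1.33 to 1.77) and 1.28 (1.1 to 1.49). The G2/M sum was 875 CPM (796 to 958), 1206 CPM (1122 to 1293) and 518 CPM (463 to 577), with ratios of 1.38 (1.23 to 1.55) and 0.592 (0.512 to 0.684). A single cell held 36.8% of the G2/M molecules in saline, 24.6% at 4 h and 42.2% at 8 h, and 5 cells held 84.5%, 79.1% and 70.8%. These levels rest on few cells.

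Few members had enough molecules in this gate. At 4 h all 3 such S members (Pclaf, Mcm6 and Pcna) and all 3 such G2/M members (Mki67, Top2a and Cenpa) were higher. Of all genes in that gate, 7.15% were higher and 7.76% lower. Pclaf, Mcm6 and Cenpa had enough molecules only through their 4 h counts, and had too few in the 8 h comparison. The count of members higher at 4 h is thus set in part by the minimum itself. Stmn1 (39, 70 and 44 molecules in saline, 4 h and 8 h; 4 h ratio 1.46) and Hmgb2 (311, 534 and 336 molecules; 1.39) also passed the fold at 4 h. At 8 h both such G2/M members were lower, against 7.09% of all genes, and Pcna was higher (1.3), against 5.57%. Mki67 had 67 molecules in 14 saline cells, 118 in 19 cells at 4 h and 38 in 16 cells at 8 h, with ratios of 1.43 and 0.474 (0.310 to 0.716 at 8 h). Top2a had 74 molecules in 12 saline cells, 140 in 19 cells at 4 h and 46 in 8 cells at 8 h. Molecules of both were highest at 4 h and lowest at 8 h. Positive cells followed this for Top2a, whereas Mki67 had 14 of 202 in saline and 16 of 233 at 8 h. Pclaf (38, 74 and 55 molecules), Mcm6 (41, 67 and 52), Pcna (61, 117 and 95) and Cenpa (42, 77 and 53) were likewise highest at 4 h. Hmgb2 had the most molecules, at 593, 826 and 535 CPM, followed by Tubb5 (446, 484 and 425 CPM) and Tuba1b (282, 331 and 301 CPM). With other-lineage cells left in, the G2/M sum in Foxp3+ cells was 0.837 times saline at 8 h. Without cells above 10000 molecules it was 1.59 times saline at 4 h and 0.763 times at 8 h. In that setting Pcna, Mki67, Top2a and Tuba1b were higher at 4 h and 0 members were lower. Pclaf, Mcm6 and Cenpa then had too few molecules, and Stmn1 and Hmgb2 were not called. At 8 h 0 members were called.

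Other phase genes that are not members were also described. Of 17 other G2/M genes with enough molecules, 4 were higher at 4 h (Ndc80 at 1.36, Ckap2l at 1.44, Ckap2 at 1.57 and Dlgap5 at 1.35) and 0 at 8 h. That is 23.5% of them at 4 h, against 2.86% higher of all genes, and 0% at 8 h, against 2.19%. Of 20 other S genes, 2 were higher at 4 h (Dtl at 1.84 and Clspn at 1.41), 10.0% of them, and Dtl was also higher at 8 h, at 1.71. Ndc80 acts at the kinetochore, Dlgap5 and Ckap2 on spindle microtubules, Dtl in the control of replication licensing, and Clspn in the replication checkpoint. 0 of these genes were lower at either time. They were measured in the same cells as the members and are not independent of them.

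Regulators of the cycle, a list of 31 cyclins, CDKs, CDK inhibitors, retinoblastoma and E2F family genes, MuvB subunits and quiescence genes, were close to level. Of 24 with enough molecules at 4 h and 23 at 8 h, 1 was higher at each time and 0 were lower, 4.17% higher at 4 h and 4.35% at 8 h against 2.86% and 2.19% of all genes. It was E2f3, a transcription factor of the G1/S border, with 66 molecules in 64 saline cells, 117 in 105 cells at 4 h and 117 in 107 cells at 8 h, for ratios of 1.73 and 1.74. The 151 cells held 15.3% of its molecules. The 4 regulators with most molecules were Ccnd2 (cyclin D2; 912, 893 and 911 CPM in saline, 4 h and 8 h), Btg1 (an antiproliferative factor; 690, 665 and 650 CPM), Klf2 (a quiescence factor; 559, 550 and 562 CPM) and Cdkn1b (the CDK inhibitor p27; 469, 469 and 468 CPM). Foxm1, the mitotic transcription factor, had 51, 51 and 38 molecules.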

How the data were processed

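The samples are the whole-transcriptome and sample-tag libraries of 1 capture that holds all 3 treatments. Before deposit, reads went through the BD Rhapsody WTA Multiplex pipeline (1.9.1) on GRCm38 with GENCODE M19, per the file headers; for the aligner, the sources used here give no name. The deposited counts are whole molecule counts (unique molecular identifiers after the authors' error correction) per cell and gene, and the deposited tag calls assign cells to treatments.

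Of 17299 putative cells, 16174 had a single tag in use, and 1063 multiplets, 60 undetermined cells and 2 cells of another tag were left out. Cells needed 200 genes and under 25% mitochondrial molecules, which kept 16123, of which 15204 were T cells. Doublets within a pool were not removed, and ambient RNA was not corrected. Counts were summed over cells and divided by the total of those cells. With 1 pool a treatment no model was fitted, and edgeR 4.0.16 (R 4.3.3) gave only trimmed mean of M-values (TMM) factors as an alternative. Other steps used Python 3.11.15, numpy 2.4.6, pandas 2.3.3, scipy 1.17.1 and matplotlib 3.10.9. The ratio was tested on simulated pool sums, drawn as independent Poisson counts for each gene. Those sums held no cells, so that test cannot speak for genes whose molecules lie in few cells. A count of 3 molecules, the limit that a count of 0 allows, is 0.219 CPM in saline T cells, 0.214 at 4 h and 0.215 at 8 h.

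Members named with values are the 6 with most molecules in each phase, all those past 1.3-fold, and the 3 with most molecules in each gate. Of the regulators, those past the fold and the 4 with most molecules are named. The values of 1 gene past the fold that is not a member are not reported here. Any other named gene was chosen after its values were seen. Members, lists and limits were chosen with earlier results of these data known. Alternatives changed scaling, cell filters, limits, thinning and the T cell gate.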

Additional observations from a re-analysis of the deposited data

Results flagged for a closer look

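The summed G2/M level stood on opposite sides of saline in different gates, with counting intervals that exclude 1. Those intervals are too narrow here, because few cells held many of the molecules. In saline, 5 cells held 84.5% of G2/M molecules in Foxp3+ cells, 55.3% in Cd4+ cells and 35.8% in Cd8+ cells. At 8 h against saline the ratio was 1.46 in Cd8+ cells, 0.804 in Cd4+ cells and 0.592 in Foxp3+ cells. At 4 h against saline it was 1.38 in Foxp3+ cells and 0.892 in Cd4+ cells. Each treatment is 1 pool, so these differences between gates were not tested. The gates differ in the number of deep cells: at 8 h, 10 Cd8+ cells, 3 Cd4+ cells and 2 Foxp3+ cells held over 10000 molecules, against 4, 5 and 1 in saline. Without such cells the 8 h ratio was 1.04 in Cd8+ cells, 1.02 in Cd4+ cells and 0.763 in Foxp3+ cells.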

How the results depend on the processing

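Of 176 values recomputed under alternatives, 145 kept within the limits set for them, 31 moved and 0 were reversed past the 1.3-fold. A ratio was kept when it fell inside the counting interval of its main value, which could be as wide as 0.922 to 9.39. Only a main ratio past 1.3-fold could be called reversed, so Cd4+ G2/M ratios that crossed 1 counted as moved. These counts are therefore a weak check. Scaling by TMM factors or by median of ratios shifted log2 ratios by between -0.019 and 0.003 and left 6 members higher at 4 h.
Without the cell richest in member molecules of each pool, 1 member was higher at 8 h. Without cells above 10000 molecules, 1 was lower at 4 h and 3 at 8 h, and the T cell G2/M sum at 8 h was 0.922 times saline. With other lineages kept, 1 member was higher at 8 h and that sum was 1.02 times. With at least 50 molecules required, 1 member was lower at 4 h and 1 higher at 8 h, and with no minimum 1 was lower at 4 h and 2 higher at 8 h. At 1.5-fold, 2 members were higher at 4 h. With at least 5 other phase genes, the Cd8+ cycling share at 8 h was 1.56 times saline (0.778 to 3.21).
The following alternatives were chosen after seeing the data. Without the richest cell, Foxp3+ ratios at 4 h were 1.62 for G2/M and 1.77 for S, and the Cd8+ G2/M ratio at 8 h was 1.55. The stricter cell filter (500 genes, 15% mitochondrial) gave 0.752 for Cd4+ G2/M at 8 h. Without cells above 10000 molecules, Cd4+ gave 1.04 for G2/M at 4 h, 1.02 for G2/M at 8 h and 1.08 for S at 8 h, both G2/M values on the other side of 1. Cd8+ gave 0.928 for G2/M at 4 h, 1.04 for G2/M at 8 h and 0.986 for S at 8 h, and Foxp3+ gave 1.59 and 0.763 for G2/M at 4 h and 8 h. With other lineages kept, Foxp3+ gave 0.837 for G2/M and 1.5 for S at 8 h. Without cells with both Cd4 and Cd8, 3 members were higher and 1 lower at 4 h, 5 were higher at 8 h, the S sum at 4 h was 1.02 and the G2/M sum at 8 h 1.07. The causes of these moves were not tested.
No pool could be left out, since each treatment had 1, and no paired analysis was possible because the pools share no replicate number. Depth limits the members with under 100 molecules and all Foxp3+ values, where 1 molecule is 1.91 CPM in saline.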
